A study of Mus musculus with 6 samples.

Results

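The genes described here encode the lipases of the exocrine pancreas, their cofactor and other products of its acinar cells. They are the 9 genes Cel, Pnlip, Pnliprp1, Pnliprp2, Clps, Gp2, Rnase1, Spink3 and Sycn of the 24062 genes counted, taken by name from a list of pancreatic lipase, colipase and zymogen granule genes and read in 4 epithelial libraries, with 2 mesenchymal libraries as background. The libraries were made from cells sorted by red or green fluorescence from dorsal pancreatic buds of mouse embryos, and sorted fractions were pooled before RNA was purified. Each of the 6 groups had 1 library: epithelial cells at embryonic day 12.5 (E12.5) and at E14.5 and mesenchymal cells at E12.5, of control or mutant genotype. Controls carried the mTmG reporter, whose cells are red until Cre recombinase turns them green. Mutants were mTmG+/- and carried Nkx2.5-Cre+/- and Pbx2+/-, that is, 1 mutant copy of Pbx2. Nkx2.5-Cre expresses Cre from the locus of a mesodermal transcription factor. How green cells arise in a genotype given as mTmG alone is not stated in the labels. The comparisons ask how these acinar genes differ between stages and between control and mutant buds.

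Acinar cells make digestive enzymes, store them in zymogen granules and release them into the ducts. Pancreatic lipase splits dietary triglycerides and needs colipase to hold it on fat droplets covered with bile salts, while carboxyl ester lipase is itself activated by bile salts. During development acinar cells form at the tips of the branching epithelium under the transcription factors Ptf1a and Rbpjl, which bind DNA as a complex at an E-box next to a TGGGAA-type core, and enzyme genes start at different times.

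Pnlip, Pnliprp1 and Pnliprp2, the related genes of pancreatic lipase and its 2 related proteins, lie in the same orientation within 125.0 kb on chromosome 19 (GENCODE M21, the assembly of mm10): Pnlip at chr19:58652498-58681788, Pnliprp1 at chr19:58728887-58744169 and Pnliprp2 at chr19:58759719-58777534. Cel lies at chr2:28555795-28563403 and Sycn at chr7:28540885-28542209. The 250 bases before the RefSeq start (GRCm38.p6) are shown for these 5 genes. Neighbours of the same family were read at very different levels, and Cel, Pnliprp1 and Sycn moved between stages and genotypes. Clps and Spink3 moved too, but no window was used for them. Capitals mark an E-box (CANNTG) or the core TGGGAA, each on either strand.
Pnliprp1, chr19:58728637-58728886, plus strand: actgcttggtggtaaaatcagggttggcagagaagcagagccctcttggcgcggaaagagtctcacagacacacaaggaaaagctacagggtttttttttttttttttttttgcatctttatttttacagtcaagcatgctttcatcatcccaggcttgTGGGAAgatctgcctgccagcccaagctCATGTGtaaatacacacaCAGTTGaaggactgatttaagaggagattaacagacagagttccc
Pnlip, chr19:58670115-58670364, plus strand: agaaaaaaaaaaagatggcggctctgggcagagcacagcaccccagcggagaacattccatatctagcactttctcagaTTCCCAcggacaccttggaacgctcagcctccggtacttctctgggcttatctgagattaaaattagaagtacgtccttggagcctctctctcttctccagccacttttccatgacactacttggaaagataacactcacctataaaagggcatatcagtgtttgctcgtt
Pnliprp2, chr19:58759473-58759722, plus strand: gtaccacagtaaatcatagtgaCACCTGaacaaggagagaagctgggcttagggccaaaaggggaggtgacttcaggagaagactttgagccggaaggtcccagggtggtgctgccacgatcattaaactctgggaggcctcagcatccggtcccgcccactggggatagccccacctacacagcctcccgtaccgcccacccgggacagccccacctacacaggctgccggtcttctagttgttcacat
Cel, chr2:28563404-28563653, minus strand: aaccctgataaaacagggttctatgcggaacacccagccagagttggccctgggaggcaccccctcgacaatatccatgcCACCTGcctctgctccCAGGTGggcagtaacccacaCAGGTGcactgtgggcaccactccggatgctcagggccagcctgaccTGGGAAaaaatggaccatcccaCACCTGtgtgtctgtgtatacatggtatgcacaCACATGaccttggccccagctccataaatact
Sycn, chr7:28540635-28540884, plus strand: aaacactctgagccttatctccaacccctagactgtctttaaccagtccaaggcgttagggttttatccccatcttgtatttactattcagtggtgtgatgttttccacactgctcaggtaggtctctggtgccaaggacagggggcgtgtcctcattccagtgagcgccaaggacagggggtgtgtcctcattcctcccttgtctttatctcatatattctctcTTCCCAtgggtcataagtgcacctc
The RefSeq start of Pnlip used here lies inside the longer gene model that GENCODE gives. A window was used for 7 of the 9 members (these 5, Gp2 and Rnase1), so the counts that follow leave out Clps and Spink3. The core was found in 6 of the 7, all but Pnliprp2, against 21.6% of the 32851 promoters of the same length. An E-box was found in 4 of the 7 (Cel with 5, Pnliprp1 with 2, Gp2 with 2 and Pnliprp2 with 1), against 66.2% of promoters. Both were present in Cel, Pnliprp1 and Gp2, and in 14.8% of promoters. Letters in a window are a description and show no binding. The Pnlip and Pnliprp1 windows both hold the core, but Pnlip stayed under 3 CPM in every library and Pnliprp1 became the most abundant transcript of one. The coding sequences of the 3 neighbours were 65.4% to 69.0% identical, with no identical run longer than 23 bases between their transcripts. No member overlapped another annotated gene, and no stretch of 50 bases of a member was found in another gene's transcripts.

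Values are CPM, reads of a gene scaled to library size, adjusted by TMM, a correction for library composition, and ratios compare 2 libraries. Library totals lay between 14032569 and 20276045 reads in genes. Since each group is 1 pool, no difference has a replicate check, so no p-value is given, and each 95% interval covers counting error alone. A gene counted as measured where either library reached 5 CPM, and as called where the ratio was also at least 2-fold with an interval that excluded 1. Pbx2 was read at 54.5 CPM in control and 49.7 CPM in mutant epithelium at E12.5, at 34.0 and 47.3 CPM at E14.5, and at 89.9 and 56.0 CPM in mesenchyme. It was thus higher at E14.5 in the library labelled mutant than in the control. The label gives 1 mutant copy and no RNA level, and the cause of this difference was not tested. The label is used below only as a name. The count table of the E12.5 control epithelium carries another date than the other 5 in its name and lacks their mark as combined. What the date and the mark stand for is not stated. Any effect that goes with them cannot be told apart from the E12.5 control group.

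Pnliprp1 encodes a relative of pancreatic lipase that has little known activity on triglycerides. It stood at 267 CPM in the E12.5 control, 208 CPM in the E12.5 library labelled mutant, 7850 CPM in the E14.5 control and 1594 CPM in the E14.5 library labelled mutant, against 0.872 and 1.03 CPM in the control and mutant-labelled mesenchyme. The E14.5 control is thus far above the other 3 epithelial libraries, which in turn are far above mesenchyme. Per kilobase of transcript it ranked 372, 617, 1 and 17 among the 22759 genes with a known length, in the same order of epithelial libraries. In the E14.5 control 0.739% of all counts on genes were Pnliprp1, at 70.8 reads per base of its transcript. The tables are named as deduplicated, a step that can lower the counts of genes this abundant, and its size here was not tested.

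Clps, which encodes colipase (chr17:28558149-28560766, minus strand), was read at 126 and 130 CPM in the E12.5 control and mutant-labelled epithelium, 1166 CPM in the E14.5 control and 288 CPM in the E14.5 library labelled mutant. In mesenchyme it was at 0.738 and 0.322 CPM. The 2 libraries at E12.5 were close to each other, and the 2 at E14.5 were apart. Cel, the bile salt-activated lipase, was at 56.9 and 47.1 CPM at E12.5 and at 1040 and 212 CPM at E14.5, with 0.604 and 0.322 CPM in mesenchyme. Its 4 epithelial libraries fell in the same order as for Pnliprp1.

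Pnliprp2, a lipase that also acts on galactolipids and phospholipids, was much lower, at 3.11 and 2.5 CPM at E12.5, 25.8 CPM in the E14.5 control and 3.95 CPM in the E14.5 library labelled mutant. Only the E14.5 control was above 5 CPM. Its mesenchymal levels were 0.0671 and 0.514 CPM, from 1 and 8 reads. Pnlip, the classical pancreatic lipase, gave 3, 9, 31 and 8 reads in the same order of epithelial libraries (0.141, 0.591, 2.12 and 0.575 CPM) and 2 and 1 reads in mesenchyme. In the E14.5 control the level per kilobase was 4849 CPM for Pnliprp1, 16.4 CPM for Pnliprp2 and 1.43 CPM for Pnlip, in the order of falling level. Colipase was thus read at 1909 CPM per kilobase in a library where the lipase it is named for was scarcely read.

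The other products differed as much. Spink3, the secreted trypsin inhibitor (chr18:43728082-43737557, minus strand, named Spink1 in the annotation), was at 10.6 and 10.7 CPM at E12.5, 187 CPM in the E14.5 control and 36.1 CPM in the E14.5 library labelled mutant, with no read in mesenchyme. Sycn encodes syncollin, a protein on the inner face of the granule membrane, and stood at 1.98, 0.788, 10.6 and 0.718 CPM in the same order, from 42, 12, 154 and 10 reads, with no read in mesenchyme. Its 2 libraries labelled mutant were close to each other at both stages, and the controls were above them. Rnase1 encodes pancreatic ribonuclease (chr14:51144998-51146785, minus strand) and was read in 1 library alone, with 69 reads in the E14.5 control (4.73 CPM, interval 3.68 to 5.98). The other 5 libraries had 0 reads, which allows at most 0.141 to 0.215 CPM at a limit of 3 counts. Gp2, the major glycoprotein of the granule membrane (chr7:119442537-119459285, minus strand), had 0, 4, 0 and 7 reads in the 4 epithelial libraries and 0 and 1 in mesenchyme. Pnlip, Gp2 and Rnase1 were under 5 CPM in all 6 libraries, and the other 6 genes reached 5 CPM in at least 1 epithelial library.

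**Figure D1:**
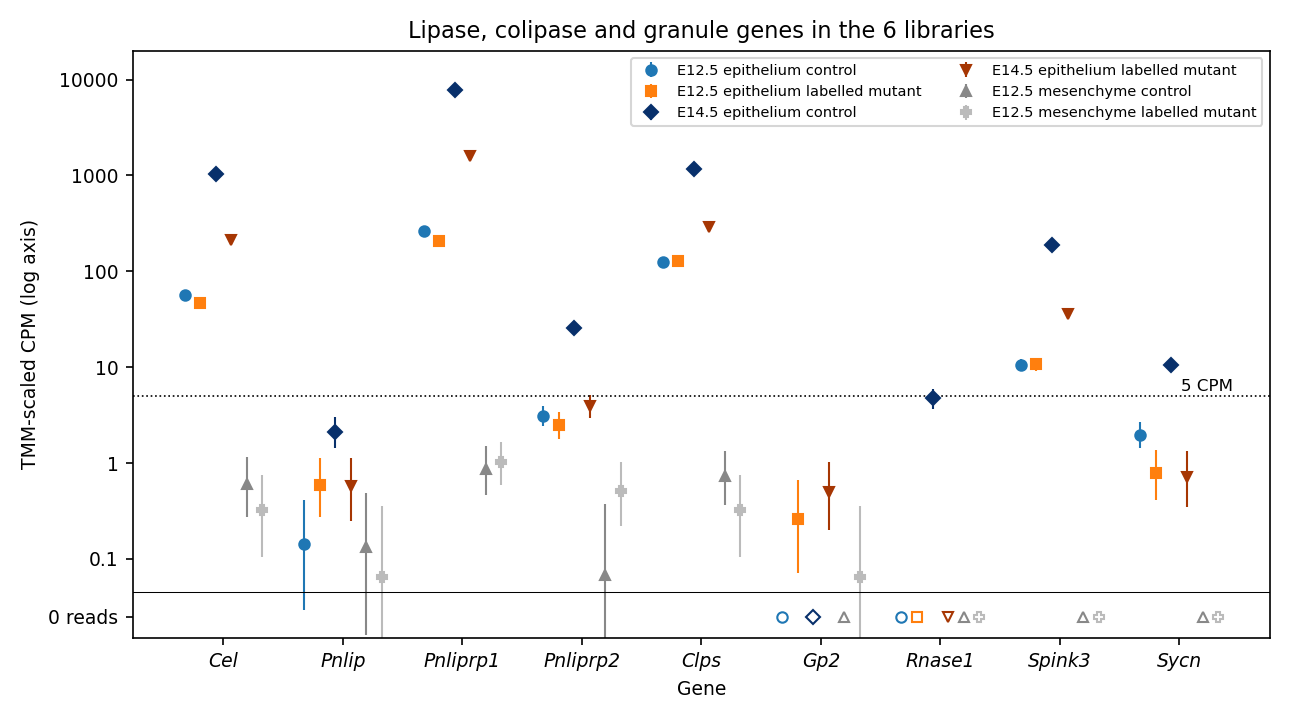
TMM-scaled CPM (log axis) of the 9 genes in the 6 libraries, with exact 95% Poisson intervals that cover counting error only; open symbols mark 0 reads and the dotted line 5 CPM. The E14.5 control is the highest library for every gene but Gp2, and Pnlip, Gp2 and Rnase1 stay under the line.

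Rnase1 is also an endothelial gene, so endothelial markers were read beside it. The summed level of 15 such markers was 407, 513, 388 and 365 CPM in the E12.5 control, E12.5 mutant-labelled, E14.5 control and E14.5 mutant-labelled epithelium, and none of the 15 was at 0 in these libraries. The 14 leukocyte markers summed to 492, 268, 414 and 287 CPM in the same order, and the part of either cell type in the Rnase1 value was not tested.

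Together the 9 genes took 465 CPM in the E12.5 control, 400 CPM in the E12.5 library labelled mutant, 10290 CPM in the E14.5 control and 2136 CPM in the E14.5 library labelled mutant, against 2.42 and 2.32 CPM in mesenchyme. Per length, colipase led at E12.5 with 49.2% of the 9 genes' summed level in the control and 55.6% in the library labelled mutant, ahead of Pnliprp1 at 39.4% and 33.7%. At E14.5 the order was the reverse, with Pnliprp1 at 64.1% and 61.0% and Clps at 25.3% and 29.3%. Cel held 5.98% to 6.67% and Spink3 3.07% to 3.85% in all 4 epithelial libraries. The make-up of the set thus followed stage more than genotype label, whereas its total differed by both at E14.5.

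**Figure D2:**
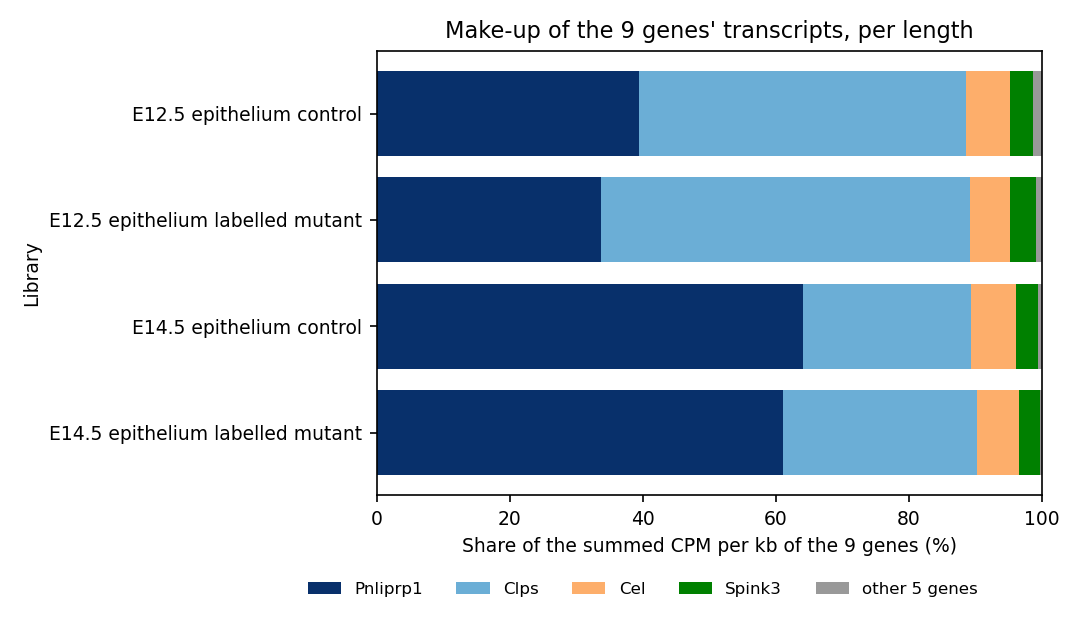
Share of each gene in the summed CPM per kilobase of the 9 genes, in percent, for the 4 epithelial libraries. Clps is the largest share in both E12.5 libraries (49.2% and 55.6%) and Pnliprp1 in both E14.5 libraries (64.1% and 61.0%).

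Against Cpa1, a carboxypeptidase gene that marks early tip cells and later acinar cells, Pnliprp1 per kilobase stood at 37.2% in the E12.5 control, 29.1% in the E12.5 library labelled mutant, 172% in the E14.5 control and 126% in the E14.5 library labelled mutant. It was below Cpa1 at E12.5 and above it at E14.5 under both labels. Clps changed far less against Cpa1, at 46.5%, 48.1%, 67.7% and 60.3%. Cel stood at 6.23%, 5.18%, 17.9% and 13.1%. Sycn had no such gain, at 0.804%, 0.322%, 0.673% and 0.165%.

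Between E12.5 and E14.5 the control epithelium gained lipase, colipase and trypsin inhibitor transcripts. Pnliprp1 was 29.5-fold higher at E14.5 (interval 28.7 to 30.3), Cel 18.3-fold (17.3 to 19.4), Spink3 17.7-fold (15.4 to 20.3) and Clps 9.29-fold (8.92 to 9.68). Pnliprp2 was 8.29-fold higher (6.36 to 10.9) and Sycn 5.33-fold (3.77 to 7.69), but both were measured only through the E14.5 control and could be called in 1 direction alone. These 6 of the 9 genes were called higher, where 6.53% of all 12136 measured genes were. Ranked by ratio among those genes, Pnliprp1 stood at 31, Cel at 41, Spink3 at 43, Clps at 77, Pnliprp2 at 86 and Sycn at 143 from the top. Rnase1 was at least 26.5-fold higher by its exact 95% limit (33.5-fold with the library at 0 set to a floor of 3 counts) and Pnlip 15.0-fold (4.69 to 76.8), both under 5 CPM. Gp2 had no read at either stage. On plain CPM 573 of all genes were higher and 1786 lower in this comparison, against 792 and 1355 here, and the median of all genes was -0.19 in place of -0.03 on the log2 scale. All 6 were still called there. The general epithelial markers also rose with stage in the control, from 4574 to 8292 CPM in sum, with 8 of 25 called higher and a median log2 ratio of 0.64. Relative to that median, Pnliprp1 was 18.9-fold higher (18.4 to 19.5), Cel 11.8-fold (11.1 to 12.5), Spink3 11.4-fold (9.92 to 13.1), Clps 5.98-fold (5.74 to 6.23), Pnliprp2 5.33-fold (4.09 to 7.03) and Sycn 3.43-fold (2.43 to 4.95).

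The rise was smaller between the libraries labelled mutant. Pnliprp1 was 7.66-fold higher at E14.5 (7.38 to 7.96), Cel 4.50-fold (4.15 to 4.89), Spink3 3.37-fold (2.82 to 4.05) and Clps 2.22-fold (2.11 to 2.35). These 4 of the 9 were called higher, against 6.27% of measured genes. Pnliprp2 was 1.58-fold higher (1.03 to 2.46) and Sycn was at a log2 ratio of -0.13 (-1.5 to 1.2), both under 5 CPM. The log2 change with stage was larger in the control than in the libraries labelled mutant by 1.94 for Pnliprp1 (1.88 to 2.01), 2.02 for Cel (1.88 to 2.17), 2.06 for Clps (1.97 to 2.16) and 2.39 for Spink3 (2.07 to 2.71). The difference was 2.39 for Pnliprp2 (1.68 to 3.09) and 2.55 for Sycn (1.24 to 3.86). Among 12316 genes these differences ranked between 49 and 132 from the largest, with a median of 0.00 over all genes. The intervals of every pair of these genes overlapped, except those of Pnliprp1 and Spink3. Relative to the general epithelial markers, whose median log2 ratio with stage was 0.00 in the libraries labelled mutant, the differences were smaller: 1.31 for Pnliprp1 (1.24 to 1.38), 1.39 for Cel (1.25 to 1.54), 1.43 for Clps (1.33 to 1.53), 1.76 for Spink3 (1.43 to 2.08), 1.76 for Pnliprp2 (1.05 to 2.46) and 1.92 for Sycn (0.61 to 3.22).

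At E12.5 no member was called in either direction by genotype label, against 1.79% of measured genes called higher and 3.21% called lower. The log2 ratio of the library labelled mutant to the control was -0.27 for Cel (-0.41 to -0.14) and -0.36 for Pnliprp1 (-0.42 to -0.30), and both stayed under 2-fold. It was 0.05 for Clps (-0.04 to 0.13) and 0.02 for Spink3 (-0.28 to 0.32), intervals that include no difference. Sycn, under 5 CPM in both, was 2.51-fold lower, at a log2 ratio of -1.33 (-2.39 to -0.37). Pnlip had 3 reads against 9, a log2 ratio of 2.07 (0.06 to 4.59).

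At E14.5 the library labelled mutant had less transcript of the lipases, colipase, the inhibitor and syncollin than the control. Cel was 4.91-fold lower (4.72 to 5.11), Pnliprp1 4.93-fold (4.86 to 5.0), Spink3 5.16-fold (4.69 to 5.69) and Clps 4.05-fold (3.91 to 4.19). Pnliprp2 was 6.52-fold lower (4.90 to 8.82) and Sycn 14.7-fold (7.78 to 31.2), and these 2 were measured only through the control and could be called only lower. These 6 were called lower, where 6.4% of all 12145 measured genes were, and they ranked between 29 (Sycn) and 140 (Clps) from the lowest ratio. The intervals of Cel, Pnliprp1, Spink3 and Pnliprp2 overlapped, and that of Clps lay nearer to 1. That of Sycn reached farther from 1 and overlapped that of Pnliprp2 alone. Under 5 CPM, Rnase1 was at least 17.4-fold lower by its exact 95% limit (21.9-fold at a floor of 3 counts) and Pnlip 3.70-fold lower (1.66 to 9.31). Gp2 had 0 reads against 7 and was at least 1.51-fold higher by that limit (2.45-fold at the floor).

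**Figure D3:**
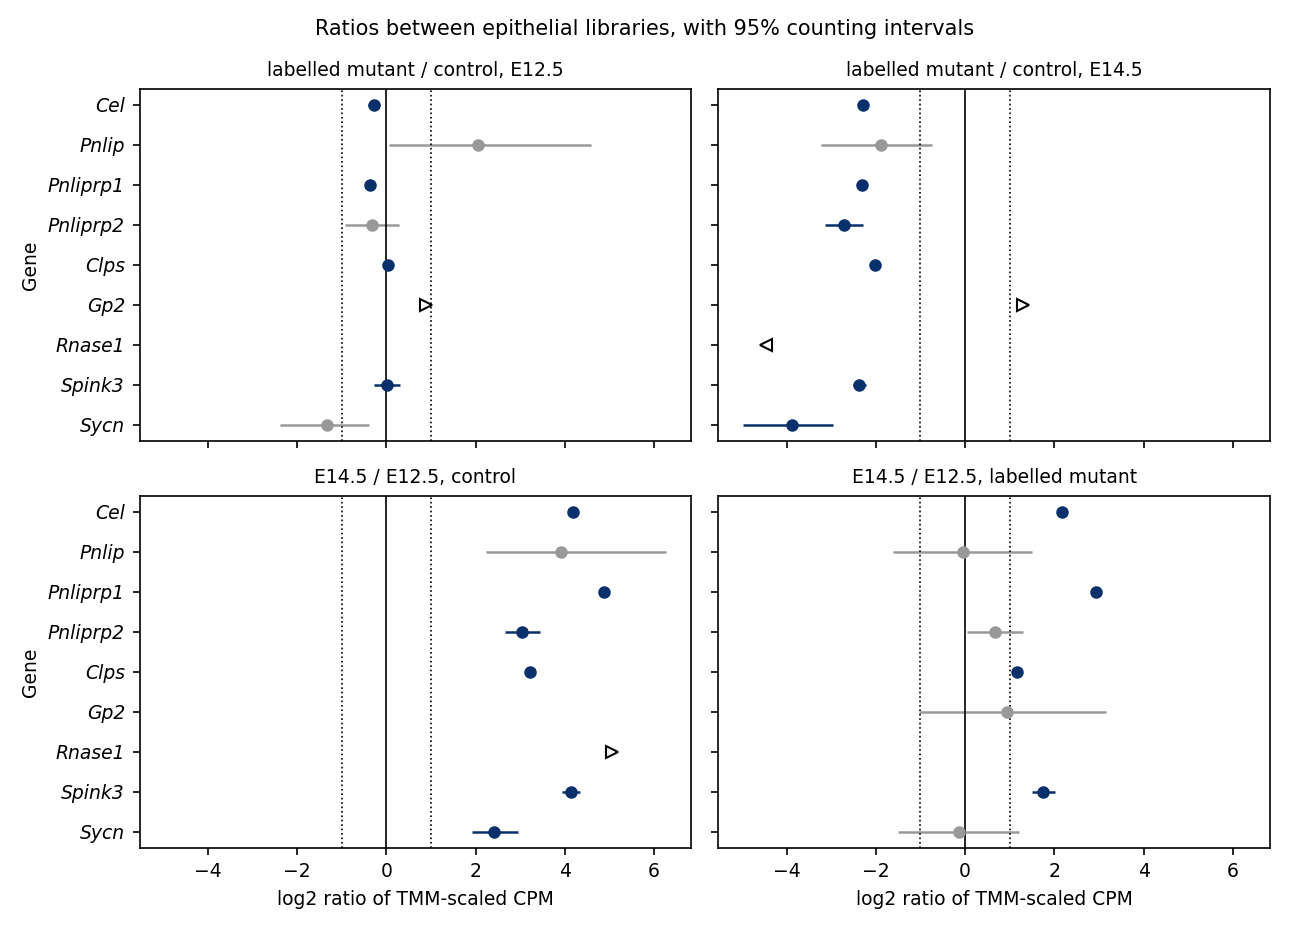
Log2 ratios of the 9 genes in the 4 comparisons between epithelial libraries, with 95% counting intervals; blue points are genes that reached 5 CPM in either library, grey points are below that, open triangles are bounds where 1 library had no read, and dotted lines mark 2-fold. The 6 blue points lie left of the line at E14.5 by genotype label, while the 4 at E12.5 lie within 2-fold.

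General epithelial and mesenchymal markers also moved with the label at E14.5. None of the 25 general epithelial markers is on an acinar list used here, but acinar cells are part of the epithelium. These markers summed to 8292 CPM in the E14.5 control against 4447 CPM in its mutant-labelled counterpart. The 25 mesenchymal markers summed to 6646 and 13650 CPM in the same order. At E12.5 the epithelial sums were 4574 and 3989 CPM and the mesenchymal sums 6155 and 7243 CPM. In the control and mutant-labelled mesenchyme itself the mesenchymal markers summed to 12860 and 11500 CPM. The E14.5 epithelial library labelled mutant thus stood above both mesenchymal libraries in these markers. The median log2 ratio of the epithelial markers at E14.5 was -0.95, and relative to it Clps was 2.09-fold lower (2.02 to 2.16), Cel 2.54-fold (2.44 to 2.64), Pnliprp1 2.54-fold (2.51 to 2.58), Spink3 2.67-fold (2.42 to 2.94), Pnliprp2 3.37-fold (2.53 to 4.55) and Sycn 7.59-fold (4.02 to 16.1). All 6 were thus still called on that scale, where the calls over all genes were 5348 higher and 149 lower, in place of 1171 and 777, and 1.23% were lower. The part of the mesenchymal markers in these ratios was not tested. In pooled cells, fewer acinar cells and less RNA per acinar cell cannot be told apart.

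Other acinar genes shared this direction at E14.5. All 14 measured of 18 acinar enzyme genes were called lower, with a median log2 ratio of -2.84, where that of all genes was -0.03. Of the 14, 5 were measured through the control alone and could only be called lower, and the median of the other 9 was -2.59. The median of the 6 measured members was -2.33, and -2.30 for the 4 at 5 CPM in both libraries. The enzyme genes called lower included Cpa1 (3.60-fold) and Ctrb1, a chymotrypsinogen (6.02-fold). The 5 acinar transcription factors were all lower with a median of -1.73, among them Rbpjl at 317 and 50.8 CPM (6.24-fold) and Ptf1a at 189 and 56.8 CPM (3.33-fold). A list of 18 other acinar proteins held granule, secreted, secretory pathway and membrane proteins. All 7 measured genes of it were lower (median -2.57), 1 of them measured through the control alone. They included Cckar, the gene of a membrane receptor for cholecystokinin (4.27-fold), and Serpini2, a pancreatic serpin gene (8.50-fold). At E12.5 none of the 4 measured enzymes, 5 factors and 4 other acinar proteins was called by genotype label. Of all measured genes 1.79% were called higher and 3.21% lower there, so few calls would be looked for in lists this short.

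Genes for the release of granules and for lipases outside the acinar set did not follow this pattern as closely. Of 10 exocytosis genes 1 was lower and 1 higher, where 6.4% of all genes were lower and 9.64% higher, with a median log2 ratio of -0.40. Those 2, named after their values were seen, were Rab27a, a GTPase gene of secretory vesicles (2.16-fold lower), and Syt1, the synaptic vesicle calcium sensor, with 3 reads in the control and 70 in the library labelled mutant. Syt1 was measured through the library labelled mutant alone and could only be called higher. The median of the other 9 exocytosis genes was -0.51. Rab3d, a GTPase gene of zymogen granules, was at 138 and 70.8 CPM, a 1.95-fold difference that was not called. Of 7 measured lipase genes of other tissues 3 were lower: Mgll, for monoglyceride lipase (2.82-fold), Pnpla2, for adipose triglyceride lipase (2.05-fold), and Lipc, for hepatic lipase (2.27-fold), the last also named after its value was seen. Lipa, for lysosomal acid lipase, was at 50.2 and 83.7 CPM and Lpl, for lipoprotein lipase, at 23.8 and 38.2 CPM, both higher by less than 2-fold. The median of the 7 was -0.88, where that of the general epithelial markers was -0.95. Lipc was measured through the control alone and could only be called lower. The other 6 lipase genes had a median of -0.71.

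**Figure D4:**
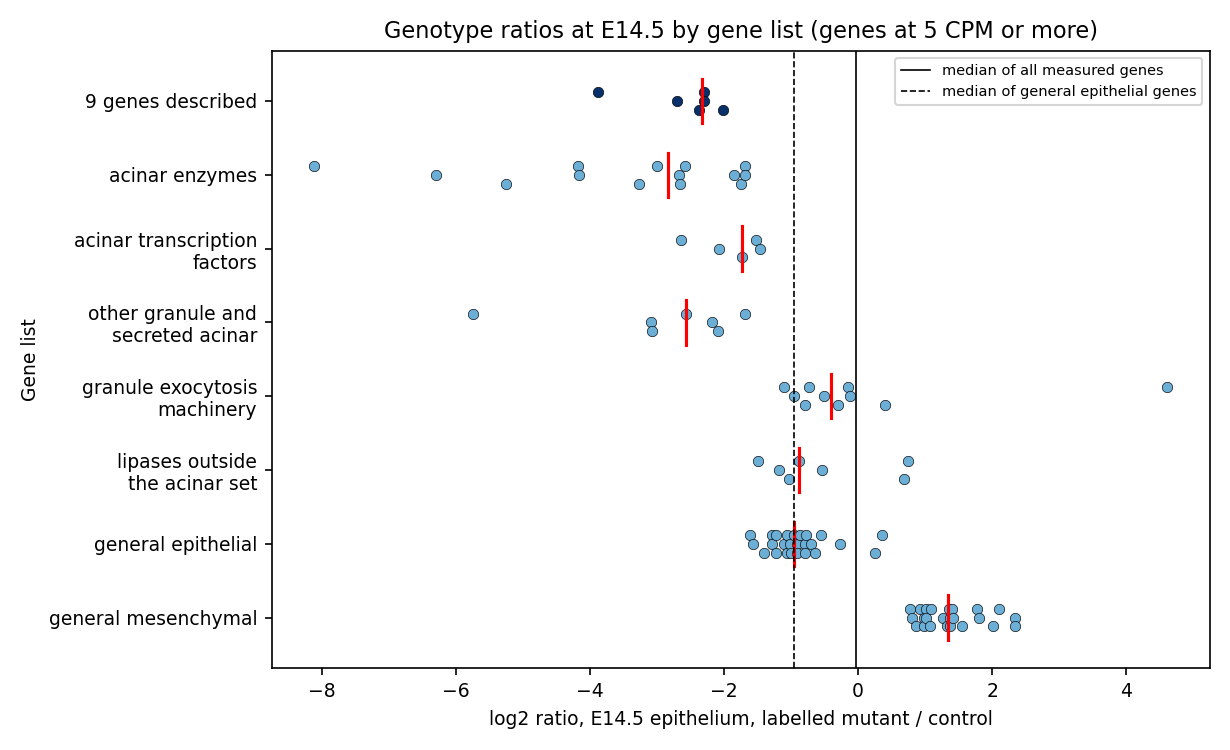
Log2 ratio of the E14.5 library labelled mutant to the E14.5 control for each gene at 5 CPM or more, by gene list; red bars are list medians, the solid line is the median of all measured genes and the dashed line that of the general epithelial markers. The members (median -2.33) and the other acinar lists lie left of the dashed line, and the median of the exocytosis list (-0.40) lies right of it.

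Over the stages in control epithelium, all 14 measured acinar enzymes were higher at E14.5 (median log2 ratio 5.88). So were all 7 measured other acinar proteins (5.17), 4 of 5 transcription factors (1.88) and 3 of 9 exocytosis genes (0.57). The share over all genes was 6.53%. Of the genes called here, 10 enzymes and 3 other acinar proteins were measured through the E14.5 library alone and could only be called higher. The medians of the remaining 4 enzymes and 4 other acinar proteins were 3.06 and 3.05. The members' median was 3.68, and 4.17 for the 4 at 5 CPM in both libraries. In the libraries labelled mutant 8 of 9 enzymes (2.96) and 5 of 6 other acinar proteins (1.56) were higher, against 6.27% of all genes. The same held for 1 of 5 factors (0.30) and 3 of 10 exocytosis genes (0.43). Of the genes measured here, 5 enzymes, 2 other acinar proteins and 2 exocytosis genes passed through the E14.5 library alone. They could only be called higher. The 4 enzymes at 5 CPM in both of these libraries had a median of 1.39, and the 4 other acinar proteins 1.22. The stage and genotype comparisons share libraries, so they are not independent views of these genes.

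In mesenchyme at E12.5 the 9 genes gave 36 reads in each library. Pnliprp1, Clps, Cel and Spink3 were called lower than in epithelium under both labels, where 13.6% of genes were lower in the control and 12.9% in the libraries labelled mutant. Pnliprp1 was 306-fold lower in the control (179 to 574) and 202-fold in the library labelled mutant (124 to 354), and Spink3 was at least 42.3-fold and 44.6-fold lower by its exact 95% limits (52.4-fold and 55.5-fold at the floor of 3 counts). All 4 genes were measured through epithelium alone and could be called in 1 direction only. The general epithelial markers summed to 177 and 146 CPM in these mesenchymal libraries, with 4 and 6 of the 25 at 0. Relative to their median change, 1 of the 4 genes was still called in each pair of libraries, Pnliprp1 in the control and Clps in the mutant-labelled pair. On that scale 0.44% of all genes were called lower in the control and 0.36% in the mutant-labelled pair. Called higher were 96.9% and 97.1%. Each of the other members had at most 8 reads in a mesenchymal library.

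The profile used for likeness was the mean of the 6 members that reached 5 CPM in at least 1 epithelial library. Pnlip, Gp2 and Rnase1 were left out of that mean. Among 12779 genes compared over the 6 libraries, the nearest were Tmed6 (Euclidean distance 0.25 on log2(CPM + 1), each gene centred), Mt1 (0.50), Nupr1 (0.56), Cbs (0.68) and Clu (0.71). Tmed6 encodes a cargo receptor of the early secretory pathway and was read at 16.8 and 15.3 CPM at E12.5, 177 and 39.1 CPM at E14.5 and 0 in mesenchyme. Mt1, a metallothionein gene, was at 31.6, 29.8, 289 and 88.6 CPM in the epithelial libraries. Of the 10 nearest, 2 (Tmed6 and Serpini2) were on a list used here. Spink3 was the member nearest the mean profile (0.64), and Gp2 the farthest (6.75).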

How the data were processed

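Each library has 1 table of raw counts deposited by the authors, with a gene symbol in each line. The values are whole numbers with no normalization, named as deduplicated, per the file names. The submitters' processing notes name mm10, Cufflinks 2.2.1 and Cuffdiff 2.2.1. For the aligner, counter, annotation and strand setting, nothing is given in the sources used here. Counts of overlapping genes would therefore be uncertain. Summary lines (4.69% to 8.84% of reads in no gene, 1.53% to 1.72% ambiguous, 13.72% to 20.05% aligned to several places) were left out of totals.

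CPM used TMM factors (0.941 to 1.047) from edgeR 4.0.16 in R 4.3.3. Ratios have exact 95% conditional binomial (Clopper-Pearson) intervals, computed in Python 3.11.15 with scipy 1.17.1 and tested on simulated data. How duplicates were removed is not stated, so counted reads may still repeat a molecule, which the intervals and floors do not cover. A library with 0 reads was set to a floor of 3 counts. Lengths came from GENCODE M21 (94.6% of genes matched) and promoters from RefSeq (GRCm38.p6).

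The members, lists and thresholds were chosen with earlier results of these data known. The rule for names took the 9 members, Pbx2, up to 4 genes per list by highest epithelial CPM and the 10 genes nearest the members' mean profile, of which some are printed. Rab27a, Syt1 and Lipc are named outside it. A further allele of the genotype label is not reported here. Alternatives were DESeq2 1.42.0 size factors, plain CPM, scaling by general epithelial genes, leaving out the 50 most abundant genes, thinned counts, other filters and other folds.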

Additional observations from a re-analysis of the deposited data

Results flagged for a closer look

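Pnlip, the pancreatic lipase gene, differed between the genotype labels in opposite directions at the 2 stages. The log2 ratio of the library labelled mutant to the control was 2.07 at E12.5 (9 reads against 3) and -1.89 at E14.5 (8 reads against 31). Each counting interval left out no difference. Relative to the general epithelial markers the E14.5 ratio was 1.91-fold, with an interval that included no difference. The gene was under 5 CPM in all libraries, each value rests on 1 library per group, and the difference between the stages was not tested.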

How the results depend on the processing

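The 6 members lower at E14.5 by genotype label and the 6 higher at E14.5 in the control kept their number within 1.5 times under every alternative run, and no called ratio of a member changed sign. The other counts moved as follows. By genotype label at E12.5, a filter at 1 CPM gave 1 call and no filter gave 2, in place of 0. Of all genes 4.94% were called higher and 6.55% lower at 1 CPM, and 6.27% and 7.52% with no filter. For stage in the libraries labelled mutant, a 4-fold threshold left 2 of 4, where 1.73% of all genes were higher. For mesenchyme against epithelium, scaling by general epithelial genes left 1 of 4 in the control and 1 of 4 in the libraries labelled mutant. Of all genes 0.44% and 0.36% were lower on that scale. With no filter the libraries labelled mutant gave 7, where 17.0% of all genes were lower. Median log2 ratios of the members moved by genotype label at E14.5 from -2.33 to -2.26 (plain CPM) and -1.38 (scaled by epithelial genes), and at E12.5 from -0.12 to 0.02 (scaled by epithelial genes). For stage in the control the median of 3.68 became 3.53 on plain CPM, 3.04 scaled by epithelial genes, 3.55 without the 50 most abundant genes, 4.03 at a 1 CPM filter, 4.14 at 20 CPM and 4.03 with no filter. For stage in the libraries labelled mutant 1.96 became 1.75 at 1 CPM and 1.04 with no filter. The filters change which members enter, and the cause of the other shifts was not tested. Of 164 single-gene values under alternatives, 133 stayed within their own interval. Each group has 1 library, so none could be left out. No paired analysis was possible because the replicate number is the same for all groups and each holds 1 library. Depth limits Pnlip, Gp2 and Rnase1, whose values rest on 0 to 69 reads.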
